A study of Mus musculus with 2 samples.

Results

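The cells described here carried RNA of neutrophil genes but few copies of S100a8 and S100a9, which encode the 2 subunits of calprotectin. They were chosen by their measured counts. A kept cell was a member if its UMIs (unique molecular identifiers, each standing for 1 captured RNA molecule) of Csf3r, Cxcr2, Il1r2, Hdc, Acod1 and Il1f9 summed to at least 3, those of S100a8 and S100a9 to under 100, those of Epcam, Krt8, Krt18 and Cldn7 to under 12, and those of C1qa, C1qb and C1qc to under 5. This gave 1588 S100-low cells among 26153 kept cells, 1306 of them in the library labelled STK25 wKO and 282 in the library labelled WT. Another 606 cells, 597 in the library labelled STK25 wKO and 9 in the library labelled WT, met the same conditions with 100 or more S100a8 and S100a9 UMIs and are called S100-high cells.

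The study profiled mouse colorectal tumours raised with the mutagen azoxymethane and the colitis-inducing detergent dextran sulphate sodium. The library labelled STK25 wKO came from mice with a whole-body deletion of Stk25, a serine/threonine kinase of the STRIPAK phosphatase complexes, and the library labelled WT from wild-type mice given the same 2 agents. Each library was a pool of several tumours dissociated with trypsin, and the age and strain of these mice were not given in the sources used here. The series text also names a sort on mCherry without saying which cells carried it, so the shares of cells below are shares of what was loaded. With 1 library per genotype there is no replicate, no test and no p-value; intervals are 95% exact intervals and cover counting error only, and a difference between libraries cannot be told apart from a difference between 2 preparations.

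Neutrophils leave the bone marrow with a store of granule proteins and of calprotectin, which sequesters metals and acts as an alarm signal outside the cell. Granule genes are read mostly in the marrow, while a cell that has entered an inflamed tissue reads genes of cytokines, chemokines, adhesion molecules and survival factors, many of them under the transcription factor NF-kB. The 6 genes of the rule mark different sides of this biology: Csf3r is the receptor of the granulocyte growth factor G-CSF, Cxcr2 the receptor of neutrophil-attracting chemokines, Il1r2 a decoy receptor of interleukin-1, Hdc the enzyme that makes histamine, Acod1 the enzyme that makes itaconate, and Il1f9 an interleukin-1 family cytokine. Slc7a11 imports cystine for glutathione synthesis.

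The libraries held 66297749 UMIs in 14168 barcodes (labelled STK25 wKO) and 38737373 UMIs in 12542 barcodes (labelled WT). Stk25 itself stood at 127 CPM (counts per 1000000, here UMIs of a gene per 1000000 UMIs of the summed cells) in the library labelled STK25 wKO and 118 CPM in the library labelled WT over all kept cells, a log2 ratio of 0.11 (0.05 to 0.16). Stk25 RNA was thus not lower in the library labelled STK25 wKO, and since none of the sources states which part of the gene was removed, the counts do not check the label. The libraries shared 230 barcodes. Of the S100-low cells, 24 in the library labelled STK25 wKO and 5 in the library labelled WT carried a shared barcode, and 0 barcodes were S100-low cells in both.

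By the definition below, the name neutrophil held for about 48% of the S100-low cells. Clustering these cells alone gave 9 clusters, of which clusters 1, 3 and 6 had no marker of another cell class and fewer than 5 epithelial genes among their 10 leading genes. These neutrophil-like clusters held 756 cells: 639 in the library labelled STK25 wKO, or 48.9% of its S100-low cells (46.2 to 51.7%), and 117 in the library labelled WT, or 41.5% (35.7 to 47.5%). The definition was made after the clusters had been seen. Cluster 1 (367 cells) was led by Antxr2, Sgms2, Il1rap and Mmp9, the gene of a gelatinase stored in neutrophil granules. Cluster 3 (267 cells) was led by G0s2, S100a9 and the stefin gene Stfa2l1, and had a median of 34 S100a8 and S100a9 UMIs per cell. Cluster 6 (122 cells) was led by Gdf15, Fnip2, Gbe1, Mreg and Csf1, the gene of the macrophage growth factor. G0s2, which the rule did not use, had a UMI in 74.1% of the cells of cluster 1, in 91.4% of cluster 3 and in 41.0% of cluster 6.

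The other 6 clusters led with genes of other cells. Cluster 2 (309 cells) had 7 epithelial genes among its 10 leading genes, Nkd1, Shroom3 and Ctnnd1 among them, with Csf3r in 38.8% and Hdc in 71.8% of its cells, so it resembled the neutrophil-like clusters in the rule's own genes. Outside the rule, G0s2 had a UMI in 49.8% and Trem1 in 26.2% of its cells, above the 41.0% and 18.0% of cluster 6. Slc7a11 (56.3% and 86.9%) and Clec4d (36.9% and 70.5%) went the other way. Cluster 2 was thus set aside for its epithelial genes and not for a lack of neutrophil genes. Cluster 4 (260 cells) led with Chil3, Saa3, Arg1, Inhba and Nos2, and 66.2% of its cells had a UMI of Csf1r, the receptor of macrophage growth factors. Chil3, listed as a monocyte marker, was the gene that set cluster 4 aside, and it also stands in the granule gene list used below. Cluster 5 (140 cells) led with Il17a, Cd3g and Ctla4, and cluster 7 (53 cells) with H2-Ab1, Cd74 and Mgl2, genes of antigen presentation. Cluster 8 (50 cells) led with Dcn and Col3a1, genes of connective tissue cells. Cluster 9 (20 cells) led with Lhfpl2, Dcstamp and Mmp12. A UMI of Il1r2 was present in 79.3% of the cells of cluster 5 and 98.1% of cluster 7, and Acod1 in 76.2% of cluster 4. These are genes that T cells, dendritic cells and macrophages can express. Cluster 5 also had Acod1 in 47.9% and G0s2 in 32.9% of its cells, against 18.9% and 11.3% in cluster 7. Whether the RNA that met the minimum was the cells' own, came from another cell in the droplet or was free RNA was not tested. The doublet caller's own threshold called 0 cells in either library and did not work; removing the highest scores took 207 and 14 S100-low cells, and 35 and 0 cells of the neutrophil-like clusters, in the libraries labelled STK25 wKO and WT.

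**Figure D1:**
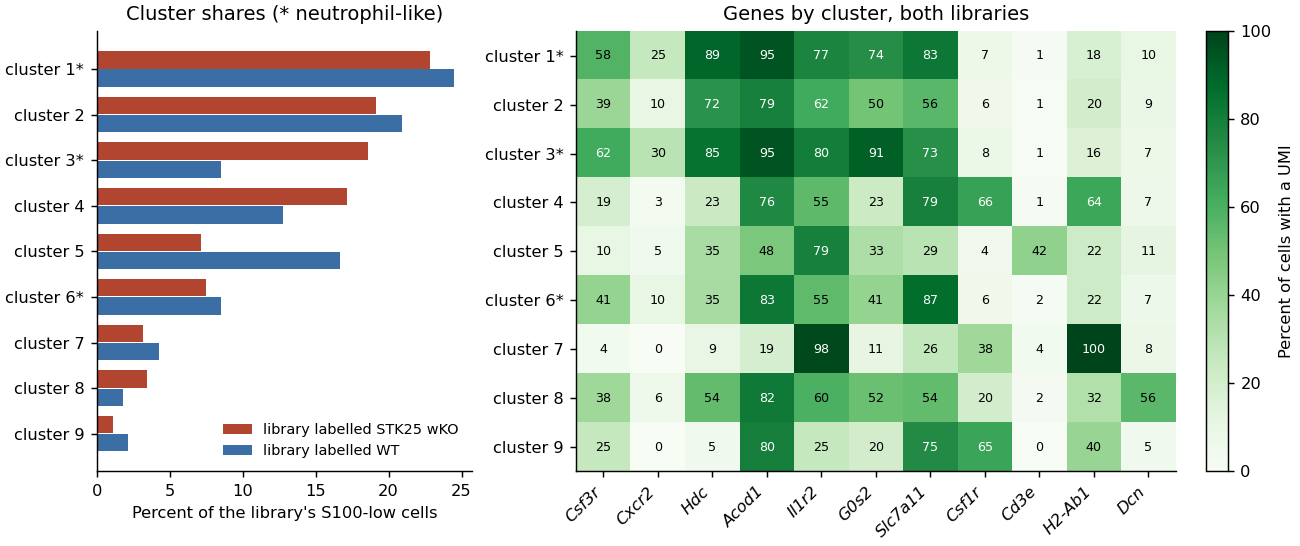
Left, percent of each library's S100-low cells in each of the 9 clusters (red, library labelled STK25 wKO; blue, library labelled WT). Right, percent of cells of each cluster with at least 1 UMI of 11 genes; Hdc and Cxcr2 are found most often in clusters 1, 2 and 3, while Csf1r, Cd3e, H2-Ab1 and Dcn stand out in clusters 4, 5, 7 and 8.

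S100-low cells took a larger share of the library labelled STK25 wKO. They were 9.41% of its kept cells (8.93 to 9.91%), against 2.30% (2.04 to 2.58%) in the library labelled WT, a ratio of 4.09 (3.46 to 4.85). In the neutrophil-like clusters alone the shares were 4.60% (4.26 to 4.97%) and 0.954% (0.789 to 1.14%), a ratio of 4.83 (3.73 to 6.29). The S100-high cells were further apart, with 4.30% (3.97 to 4.65%) in the library labelled STK25 wKO and 0.0734% (0.0336 to 0.139%) in the library labelled WT. S100-low cells were therefore 68.6% of the neutrophil-rule cells of the library labelled STK25 wKO (66.5 to 70.7%) and 96.9% of those of the library labelled WT (94.2 to 98.6%).

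Within the limit of 100 UMIs the libraries also differed. The S100-low cells had a median of 4.5 S100a8 and S100a9 UMIs in the library labelled STK25 wKO and of 1 in the library labelled WT, at a similar depth of 1539 and 1536 UMIs per cell. No S100a8 or S100a9 UMI was found in 6.36% of the S100-low cells labelled STK25 wKO and in 47.9% of those labelled WT. In the neutrophil-like clusters S100a8 and S100a9 were a median 0.667% of a cell's UMIs in the library labelled STK25 wKO and 0.171% in the library labelled WT, against 13.6% and 7.67% in the S100-high cells. The limit is in absolute UMIs, and the neutrophil-like S100-low cells were shallower than the S100-high cells (median 1378 against 3009 UMIs in the library labelled STK25 wKO, 1325 against 2372 in the library labelled WT). Just inside the limit, at 80 to 99 UMIs, lay 48 cells labelled STK25 wKO and 2 labelled WT. Just outside, from 100 to under 120 UMIs, lay 28 and 2 cells. The median sum of the rule's 6 neutrophil genes was 15 just inside and 17.5 just outside the limit in the library labelled STK25 wKO.

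Free RNA in the droplets was gauged in B cells, which should lack neutrophil genes. In cells thinned to 500 UMIs, S100a9 had a UMI in 22.2% of B cells labelled STK25 wKO and in 1.96% of those labelled WT, against 77.9% and 48.7% of the neutrophil-like S100-low cells. Slc7a11, which the rule did not use, had a UMI in 55.1% and 65.8% of the neutrophil-like S100-low cells and in 2.22% and 0.980% of B cells. Of the rule's genes, Acod1 had a UMI in 1.67% and 0.980% of B cells and Hdc in 0.556% and 0%. S100-low cells had to carry such genes, so their own shares are no comparison. Of cells with B-cell markers, 8 of 176 (4.55%, 1.98 to 8.76%) labelled STK25 wKO and 0 of 99 (exact upper limit 3.66%) labelled WT reached the rule's minimum of 3 UMIs. The rule thus also let in some cells of another type in the library labelled STK25 wKO. The intervals of the 2 libraries overlapped, so a difference between them in this share was not shown. Unthinned B cells had a median of 2 and a maximum of 25 S100a8 and S100a9 UMIs in the library labelled STK25 wKO, and a median of 0 and a maximum of 2 in the library labelled WT, so the low S100a8 and S100a9 counts of S100-low cells overlap with those of B cells.

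**Figure D2:**
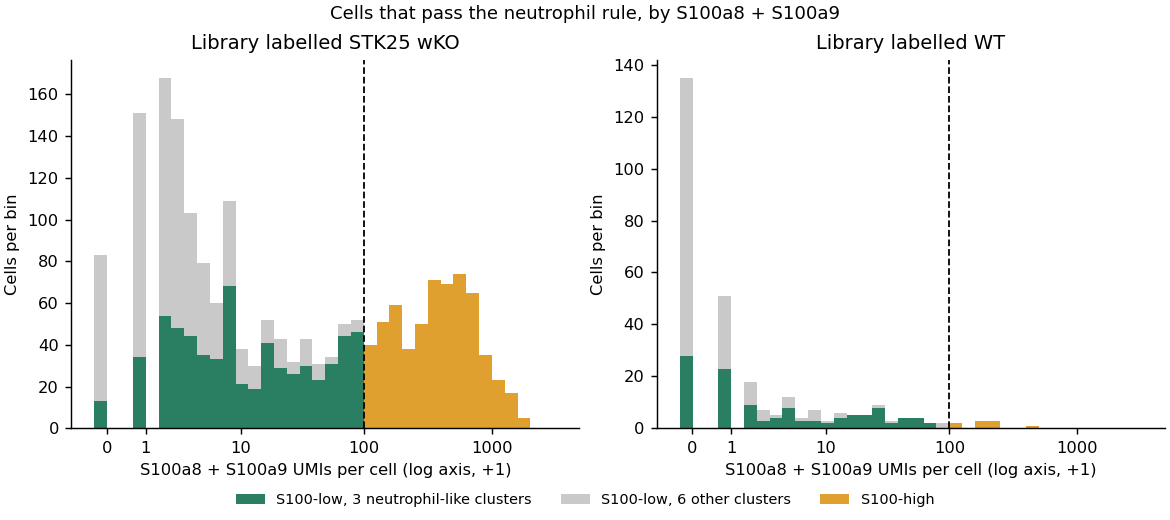
Number of cells (y axis) by the sum of S100a8 and S100a9 UMIs per cell plus 1 (x axis, log scale) for all cells that met the neutrophil rule, in the libraries labelled STK25 wKO (left) and WT (right), stacked by class. The dashed line is the limit of 100. In the library labelled WT 47.9% of S100-low cells are at 0, and 9 cells lie past the limit.

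Across S100a8 and S100a9 levels, the genes of the neutrophil-like cells fell into different orders. The neutrophil-like S100-low cells and the S100-high cells of the library labelled STK25 wKO were put into 6 bands of S100a8 and S100a9 UMIs (starting at 0, 10, 30, 60, 100 and 140 UMIs, with 329, 133, 81, 96, 59 and 538 cells). The bands use the values that define the groups and differ in depth (median 1248, 1481, 1483, 1664, 1946 and 3190 UMIs), so they are a description. In the library labelled WT the same bands held 81, 22, 12, 2, 2 and 7 cells.

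A first set was highest where S100a8 and S100a9 were lowest. Nfkb1, a subunit of NF-kB, stood at 859, 561, 371, 349, 214 and 183 CPM from the lowest to the highest band, a fall at every step. Slc7a11 stood at 2496, 1716, 1422, 1455, 1200 and 654 CPM over the same bands. Csf1 stood at 1017 CPM in the lowest and 138 CPM in the highest band, with 403 to 583 CPM between them. Cd274, the gene of the checkpoint ligand PD-L1, stood at 1331 CPM in the lowest band and 258 CPM in the highest, and Icam1, an adhesion molecule, at 500.1 and 68.3 CPM. In the library labelled WT, Nfkb1 stood at 748 and 206 CPM and Slc7a11 at 3143 and 741 CPM in the lowest and highest bands, while Cd274 stood at 1198 and 1194 CPM and so did not share the order there.

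A second set went with S100a8 and S100a9. Retnlg, a resistin-like secreted protein of granulocytes, stood at 610.4, 1536, 2063, 4902, 4218 and 23666 CPM from the lowest to the highest band. Lcn2, the gene of the siderophore-binding granule protein lipocalin-2, stood at 352 and 6015 CPM in the lowest and highest bands, Ngp at 49.3 and 3236 CPM, and Ifitm1 at 472 and 4951 CPM. In the library labelled WT Retnlg stood at 47.9 and 5559 CPM and Lcn2 at 105 and 1400 CPM in these bands. Another set was highest in the middle bands. Cxcl2, a chemokine that draws neutrophils through Cxcr2, stood at 12279, 18134, 33910, 33373, 39894 and 26378 CPM, Il1b (interleukin-1 beta) at 5170, 6157, 9507, 9773, 9105 and 6348 CPM, and Nfkbia, the NF-kB inhibitor that NF-kB itself induces, at 1780, 3086, 5374, 5545, 6002 and 4031 CPM. Hdc and Acod1, genes of the rule on which the cells were selected, were lower in the highest band than in the lowest. Hdc stood at 2176 CPM in the lowest and 1346 CPM in the highest band, Acod1 at 5902 and 3378 CPM.

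**Figure D3:**
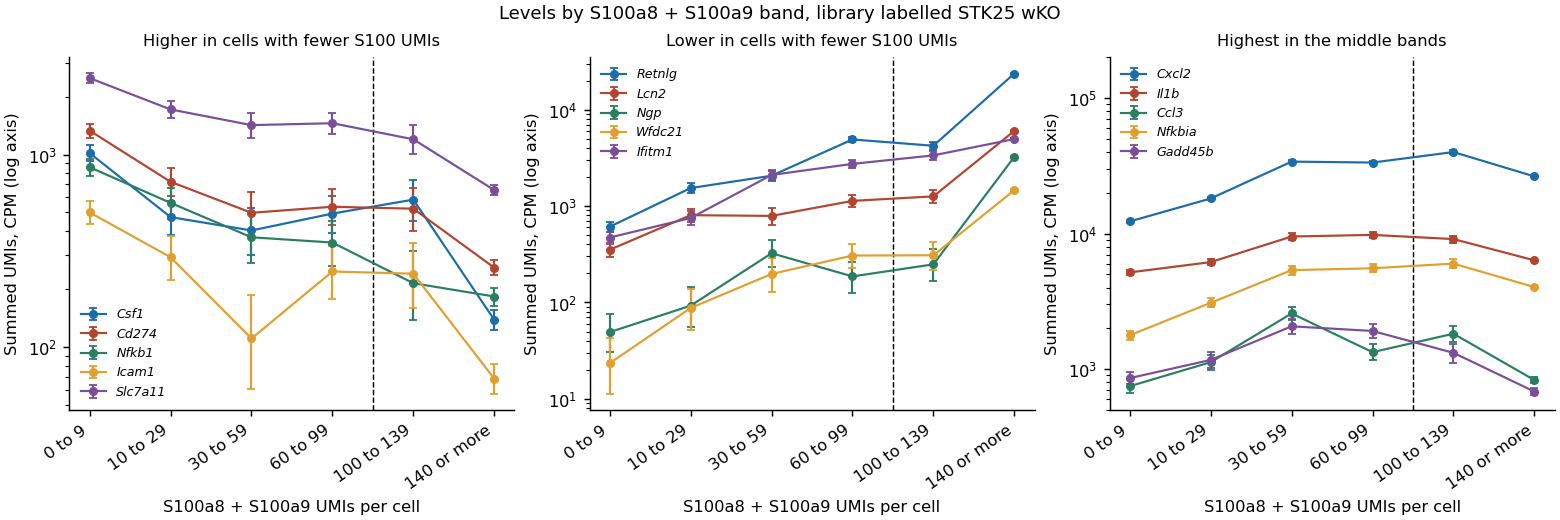
CPM (y axis, log scale, with 95% Poisson intervals) of 15 genes over 6 bands of S100a8 and S100a9 UMIs (x axis, low to high) in the neutrophil-like S100-low cells and S100-high cells of the library labelled STK25 wKO; the dashed line is the limit of 100. The first panel (Csf1, Cd274, Nfkb1, Icam1, Slc7a11) is highest in the lowest band, the second (Retnlg, Lcn2, Ngp, Wfdc21, Ifitm1) in the highest, and the last (Cxcl2, Il1b, Ccl3, Nfkbia, Gadd45b) between them.

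The 250 bases before the RefSeq starts of Csf1 and Cxcl2 (GRCm38.p6) are shown because these genes followed different orders over the bands while both stretches hold a match to the NF-kB type motif made of GGGA, any 2 bases and TTCC, read on both strands (GGAA, any 2 bases and TCCC on the other strand). They were chosen after their values had been seen. The Csf1 stretch lies at chr3:107760470-107760719 on the minus strand and its match starts 154 bases before the start. The Cxcl2 stretch lies at chr5:90903649-90903898 on the plus strand and its match starts 97 bases before the start. Capitals mark the match.
Csf1: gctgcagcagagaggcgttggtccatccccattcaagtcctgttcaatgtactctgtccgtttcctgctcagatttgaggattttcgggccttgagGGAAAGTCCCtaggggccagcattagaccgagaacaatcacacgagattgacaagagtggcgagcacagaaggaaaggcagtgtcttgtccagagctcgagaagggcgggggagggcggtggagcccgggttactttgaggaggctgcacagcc
Cxcl2: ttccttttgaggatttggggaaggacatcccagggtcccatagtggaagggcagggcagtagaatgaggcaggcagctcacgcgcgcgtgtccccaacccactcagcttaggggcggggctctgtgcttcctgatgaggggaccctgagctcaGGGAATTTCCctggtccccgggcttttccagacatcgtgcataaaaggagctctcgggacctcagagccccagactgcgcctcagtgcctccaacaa
A match was found in 397 of 32851 stretches of this length (1.21%). Counted by gene, where any stretch of a gene could match, it was found in 4 of 9 chemokine genes of the list below that had a sequence. Of 15 such NF-kB responsive genes 2 had a match. The count by stretch and the counts by gene have unlike units. A match is a description of the letters and says nothing of binding.

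The neutrophil-like S100-low cells were then set against the S100-high cells gene by gene, in the library labelled STK25 wKO, where both groups were large (923890 and 1960245 UMIs). The 2 groups were divided by S100a8 and S100a9, so these values describe and test nothing. The median log2 ratio over all genes was 0.50, and log2 ratios in this comparison are given after subtracting it (centred). A gene with at least 20 UMIs counted as higher or lower here where its centred log2 ratio of CPM, with 1 added, was at least 1 in either direction. In the other comparisons the same limit was set on the log2 ratio without centring. Of 8309 genes tested 338 were higher (4.07%) and 720 lower (8.67%) in S100-low cells. Without centring 1471 were higher (17.7%) and 285 lower (3.43%), so the balance of higher and lower genes depended on the centring.

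Granule genes were the clearest group lower in S100-low cells. Of 14 secondary and tertiary granule genes with enough UMIs, 12 were lower and 0 higher, with a median centred log2 ratio of -2.88. Retnlg stood at 1787 CPM in S100-low and 22508 CPM in S100-high cells (-4.15), Lcn2 at 653 and 5732 CPM (-3.63), Ngp at 121 and 3058 CPM (-5.14), Wfdc21 at 113 and 1391 CPM (-4.11) and Camp, the gene of the antimicrobial peptide cathelicidin, at 6.49 and 947 CPM (-7.48). Of 9 genes in the S100 and stefin list, the stefins being cysteine protease inhibitors, 7 were lower and 0 higher, with a median of -2.47. The stefin gene Stfa1 had a value of -4.10. The list also held Ifitm6, which is neither an S100 nor a stefin gene and had a value of -4.68. In the wider set of 9 neutrophil marker genes Slc7a11 was higher and G0s2, Fpr1, Fpr2 and Ly6g were lower (median -0.93). B cells of the library labelled STK25 wKO had 78.9 CPM of Retnlg and 35.1 CPM of Lcn2, below both groups.

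Signalling genes went the other way only in part. Of 19 NF-kB responsive genes 3 were higher and 0 lower, with a median centred log2 ratio of 0.15. These were Nfkb1 (634 CPM in S100-low and 185 CPM in S100-high cells, 1.28), Icam1 (355 and 78.6 CPM, 1.66) and Malt1, a protease that relays signals to NF-kB (439 and 106 CPM, 1.54). Nfkbia stood at 3240 and 4148 CPM (-0.85) and Tnfaip3, a brake on NF-kB, at 0.33. Of 15 survival genes the 3 Bcl2a1 copies were higher: Bcl2a1a 1.78, Bcl2a1b 1.29 and Bcl2a1d 2.22. They are near-identical copies whose reads the counting may split, and the neutrophil survival factor Mcl1 stood at -0.66. Gsdmd, which forms pores in dying cells, was lower. Of 16 genes tied to aged or tumour neutrophils 3 were higher, Cd274 (938 and 274 CPM, 1.28), Icam1 and the chemokine receptor Cxcr4 (195 and 66.8 CPM, 1.03), and Hilpda was lower.

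Cytokines and chemokines were mostly within 2-fold after centring. Of 16 cytokine genes 2 were higher, Csf1 (718 CPM in S100-low and 165 CPM in S100-high cells, 1.62) and Il23a, a subunit of interleukin-23 (395 and 89.3 CPM, 1.64). Csf1 was uneven, with a median of 0 UMIs per S100-low cell and 66.2% of its UMIs in 64 of the 639 cells. Cd274 and Icam1 also had a median of 0, with 52.7% and 68.3% of their UMIs in 64 cells. Il1b stood at 6811 and 6512 CPM (-0.43). Of 12 chemokine genes 0 were higher and 4 lower, namely Cxcl3, Ccl2, Ccl6 and Ccl9 (median -0.38), and Cxcl2, the most abundant of those named here, stood at 20338 and 27182 CPM (-0.92). Without centring 2 of the 12 chemokine genes were higher and 0 lower. The chemokine and growth factor receptors had a median of -0.04, with Cxcr1, Fpr1, Fpr2 and Ltb4r1 lower and Cxcr4 higher among 19. Csf3r (0.15), Il1r2 (0.20), Hdc (0.12) and Acod1 (0.18), genes of the rule itself, were nearly level, and Cxcr2 stood at 237 and 328 CPM (-0.96).

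Of the remaining groups most were lower or mixed. Cell cycle genes were an exception, with 2 of 12 higher and 0 lower and a median of 0.38. These were Pcna, a clamp of DNA replication (57.4 CPM in S100-low and 18.9 CPM in S100-high cells, 1.06), and Birc5, an inhibitor of apoptosis active in dividing cells (39.0 and 12.8 CPM, 1.04), both at low counts. Markers of epithelial cells also leaned up, with a median of 0.45 over 8 genes and a sum of 3427 CPM in S100-low and 1745 CPM in S100-high cells. Of 7 fibroblast or pericyte markers 6 were lower. The part of RNA from other cells in these values was not tested. Of 23 glycolysis and hypoxia genes 5 were lower and 0 higher, among them Gapdh (-1.38) and Eno1 (-1.11), with a median of -0.47. Without centring 1 of these 23 genes was lower and 1 higher. Of 22 interferon-induced genes 6 were lower and 0 higher, Ifitm1 (-2.56) and Ifitm3 (-2.08) among them (median -0.53). Of 17 pattern recognition genes Clec4n was higher and 6 were lower, Cd14 (-1.19) and Myd88 among them. Of 13 eicosanoid genes Ltc4s, a leukotriene synthase, was higher (2.31), and Alox5, Alox5ap (-2.90) and the leukotriene B4 receptor gene Ltb4r1 were lower. Lta4h, the gene of the enzyme that makes leukotriene B4, was level (-0.03). Among adhesion genes Itgax (1.79) and Icam1 were higher, and Selplg (-1.75) and Cd177 were lower. Of 19 redox genes Slc7a11 was higher (1988 and 686 CPM, 1.04), and Gpx1, Prdx5 and the ferritin gene Fth1 were lower. The 10 genes farthest up by the naming rule stood at 1.83 to 2.26 and included Treml4, Lsmem1, the acyl-CoA synthetase gene Acsl1, Lrmda, Fnip2, Gbe1 and Slco3a1. Acsl1, Fnip2 and Gbe1 were leading genes of cluster 6, the smallest of the neutrophil-like clusters. Ddx3y, a Y-linked gene, was also higher (44 and 9 UMIs, 2.62), in a library pooled from several tumours. The part of the mix of mice in these values was not tested.

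Where both libraries were asked for the same direction, the 9 S100-high cells labelled WT set the limit. Over all S100-low cells 1381 of 5442 genes were higher in both libraries (25.4%) and 76 lower (1.40%), and scaling by the median of ratios gave 368 higher and 227 lower. In the neutrophil-like clusters 252 of 1481 genes were higher (17.0%) and 29 lower (1.96%). The values in the rest of the paragraph are not centred. Higher in both libraries were the genes Fnip2 (147 CPM in S100-low and 27.0 CPM in S100-high cells labelled STK25 wKO, 326 CPM and 0 UMIs labelled WT), Elmo1, a regulator of cell movement (423 and 102 CPM, 754 and 69.9 CPM), the nuclear receptor gene Nr4a3 (357 and 81.6 CPM, 434 and 105 CPM), Lrmda, Mreg, Clec4n, Slc38a1, F10, Gdf15 and Dock10. Of these, Fnip2, Mreg and Gdf15 were leading genes of cluster 6, which held 122 of the 756 neutrophil-like cells. In the library labelled STK25 wKO Gdf15 stood at 287 CPM in cluster 6 and at 19.6 and 13.2 CPM in clusters 1 and 3. Lower in both libraries were Retnlg, Lcn2, Ltf, Ifitm1, Hp, Lrg1, Glrx, Anxa1, Tspo and Cstdc4. Of the 9 S100-high cells labelled WT, 8 had 2159 to 3146 UMIs and 1 had 9063. That cell held all 113 UMIs of Ltf and 169 of the 176 UMIs of Anxa1 in the group, so the WT values of these genes rest on 1 cell. In the library labelled WT the log2 ratio of Nfkb1 was 1.64, of Slc7a11 1.84, of Retnlg -3.53 and of Cd274 -0.08.

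The S100-low cells of the 2 libraries were compared within the neutrophil-like clusters, where the library labelled STK25 wKO had 923890 UMIs and the library labelled WT 165763. Of 5769 genes tested 692 were higher (12%) and 324 lower (5.62%) in the library labelled STK25 wKO, and the median log2 ratio of all genes was 0.06. Of the rule's own genes, on which the cells had been selected, Csf3r stood at 661 CPM labelled STK25 wKO and 796 CPM labelled WT, Hdc at 2084 and 2329 CPM, and Acod1 at 5579 and 4778 CPM (log2 ratio 0.22, 0.12 to 0.33). Il1r2 stood at 1744 and 2902 CPM (-0.73, -0.88 to -0.58) and Slc7a11 at 1988 and 2745 CPM (-0.47, -0.61 to -0.31), so both were lower in the library labelled STK25 wKO beyond counting error but by less than 2-fold. Of 9 other neutrophil markers 2 were higher and 0 lower (median log2 ratio 0.44). These were Fpr1 and Ly6g, a surface protein used to identify mouse neutrophils, which stood at 121 and 36.2 CPM from 112 and 6 UMIs (1.74, 0.58 to 3.22). The clusters were also mixed differently, since cluster 3 gave 243 of the 639 cells labelled STK25 wKO and 24 of the 117 labelled WT.

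Several granule genes were higher in the library labelled STK25 wKO. Of 11 secondary and tertiary granule genes with enough UMIs 5 were higher and 0 lower, with a median log2 ratio of 0.83. Retnlg stood at 1787 CPM labelled STK25 wKO and 477 CPM labelled WT (1.91, 1.58 to 2.25), and Lcn2 at 653 and 151 CPM (2.11, 1.54 to 2.75). Ngp had 112 UMIs labelled STK25 wKO (121 CPM) and 0 labelled WT, where an exact interval allows up to 22.3 CPM, and 1 cell held 29.5% of the Ngp UMIs. Wfdc21 had 104 UMIs and 1 UMI (4.22, 1.71 to 9.54). Within clusters Retnlg stood at 2244 and 256 CPM in cluster 1, 1778 and 1316 CPM in cluster 3, where the intervals overlapped, and 441 and 84.3 CPM in cluster 6, from 60 and 3 UMIs. S100a8 and S100a9 were also higher in the library labelled STK25 wKO, at 6009 and 2998 CPM and at 10035 and 4549 CPM. B cells moved with these genes, since their Retnlg stood at 78.9 CPM labelled STK25 wKO and 3.39 CPM labelled WT and their Lcn2 at 35.1 and 17.0 CPM. The part of free RNA in the difference was not tested.

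Chemokines and cytokines differed less. Of 10 chemokine genes Cxcl1 and Cxcl16 were higher in the library labelled STK25 wKO and Cxcl10 lower (median log2 ratio 0.36). Cxcl2 stood at 20338 CPM labelled STK25 wKO and 11794 CPM labelled WT (0.79, 0.72 to 0.85), and within clusters at 10372 and 5983 CPM in cluster 1, 34427 and 26924 CPM in cluster 3, and 10842 and 9358 CPM in cluster 6, where the intervals overlapped. The cells varied widely in Cxcl2, with a median of 16 UMIs labelled STK25 wKO and 6 labelled WT and a maximum of 263 and 158, and B cells had 414 and 64.4 CPM. Ccl4 stood at 1450 and 2154 CPM (-0.57, -0.74 to -0.40), the other way from Ccl3 at 1188 and 863 CPM (0.46, 0.21 to 0.72). Of 13 cytokine genes Tnf was higher, with 465 and 193 CPM from 430 and 32 UMIs (1.27, 0.75 to 1.84), and Tgfb1 lower. Within clusters Tnf stood at 388 and 189 CPM in cluster 1 and 613 and 199 CPM in cluster 3, while in cluster 6 (287 and 197 CPM, 7 UMIs labelled WT) the intervals overlapped. Il1b stood at 6811 and 6250 CPM (0.12, 0.03 to 0.22).

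NF-kB responsive and survival genes lay within 2-fold between the libraries. Of 19 NF-kB responsive genes 0 were higher and 0 lower (median log2 ratio 0.04), with Nfkb1 at 634 CPM labelled STK25 wKO and 652 CPM labelled WT. Of 13 survival genes 0 were called in either direction. Csf1 stood at 718 and 676 CPM and Cd274 at 938 and 1026 CPM, and of 16 genes tied to aged or tumour neutrophils Hilpda alone was called, higher. Within clusters Csf1 was not level, at 564 and 589 CPM in cluster 1, 432 and 745 CPM in cluster 3, and 1977 and 815 CPM in cluster 6.

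**Figure D4:**
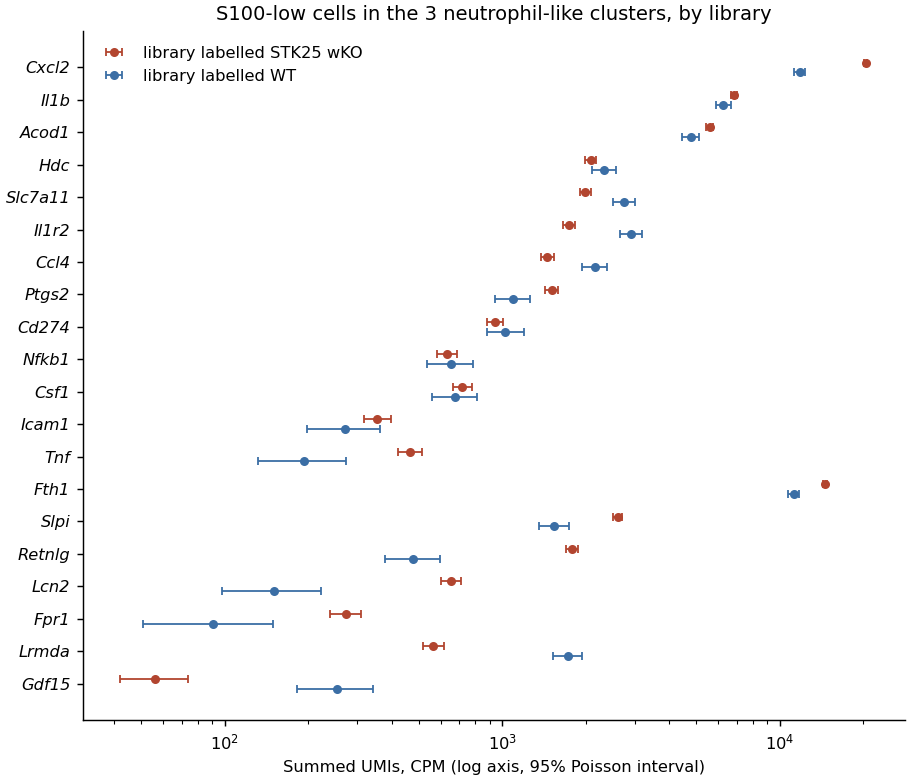
CPM (x axis, log scale, with 95% Poisson intervals) of 20 genes in the neutrophil-like S100-low cells of the library labelled STK25 wKO (red) and of the library labelled WT (blue). Retnlg (1787 and 477 CPM) and Lcn2 (653 and 151 CPM) are far apart, while Nfkb1 (634 and 652 CPM) and Csf1 (718 and 676 CPM) lie together.

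Of the other groups, 4 of 23 glycolysis and hypoxia genes were higher in the library labelled STK25 wKO (Pfkl, Hilpda, Bnip3 and Ero1l) and Egln3 was lower, with a median log2 ratio of 0.36. Hilpda, a lipid droplet protein, stood at 212 CPM labelled STK25 wKO and 72.4 CPM labelled WT, and Ero1l, an oxidase of protein folding, at 369 and 145 CPM. Of 16 interferon-induced genes Oas3, Ifitm1 (1165 and 440 CPM, 1.40, 1.06 to 1.77) and Ifitm3 were higher and Cxcl10 lower. Within clusters Ifitm1 stood at 459 and 267 CPM in cluster 1, 2234 and 1018 CPM in cluster 3, and 294 and 225 CPM in cluster 6, so the gap was at least 2-fold in cluster 3 alone, and within counting error in cluster 6. Of 18 redox genes Hmox1, the haem-degrading enzyme, was higher (185 and 48.3 CPM, 1.94, 0.93 to 3.17). Of 17 receptor genes Fpr1, the receptor of bacterial formyl peptides, was higher (273 and 90.5 CPM, 1.59, 0.84 to 2.45), although within clusters it stood at 405 and 66.7 CPM in cluster 1 but 199.9 and 199 CPM in cluster 3. Among adhesion genes Cd177 was higher and Itgax lower. Of 16 pattern recognition genes Fcgr3 and Fcgr4 were higher and Clec4n lower (195 and 440.4 CPM, -1.18).

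**Figure D5:**
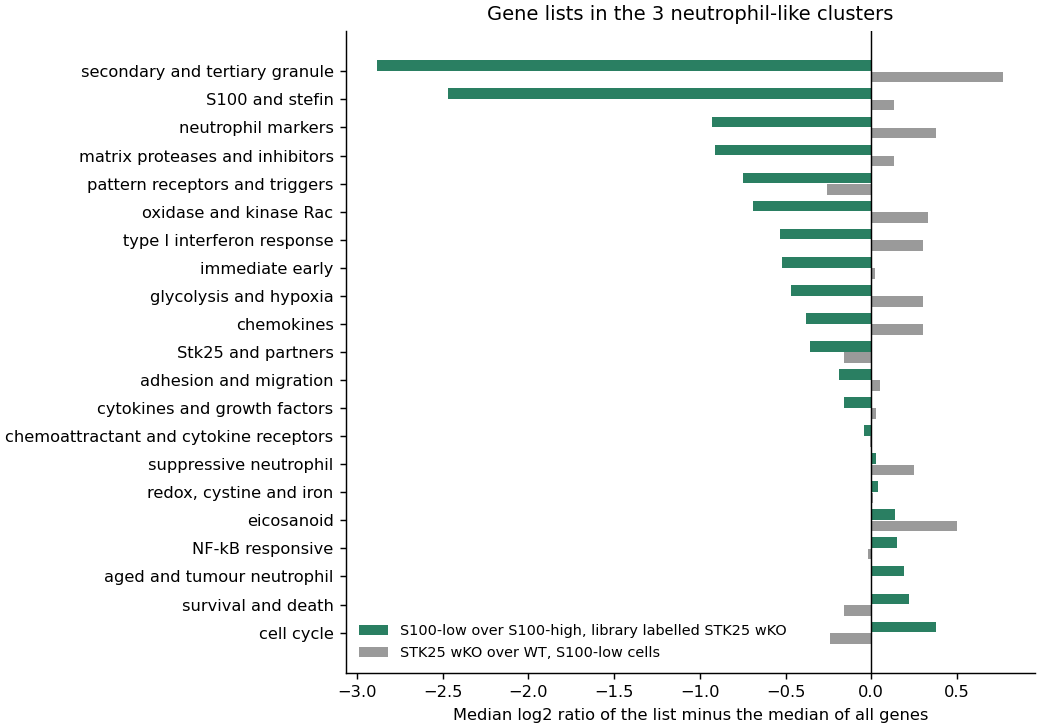
Median log2 ratio of each gene list minus the median of all genes (x axis) for neutrophil-like S100-low over S100-high cells in the library labelled STK25 wKO (green) and for the library labelled STK25 wKO over that labelled WT in neutrophil-like S100-low cells (grey). The secondary and tertiary granule list is at -2.88 in the green bars and above 0 in the grey bars.

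Among the genes lower in the library labelled STK25 wKO, Lrmda stood at 564 CPM labelled STK25 wKO and 1719 CPM labelled WT (-1.61, -1.82 to -1.39). It was lower in cluster 1 (633 and 1090 CPM) and cluster 6 (1602 and 5086 CPM), the intervals overlapped in cluster 3 (118 and 149 CPM, 6 UMIs labelled WT), and 1 cell held 12.3% of its UMIs in the library labelled WT. Gdf15, a stress-induced cytokine, stood at 56.3 and 253 CPM (-2.17, -2.79 to -1.55), but 1 cell held 38.5% of its UMIs labelled STK25 wKO and 38.1% labelled WT, and 39 of its 52 UMIs labelled STK25 wKO and 40 of 42 labelled WT lay in cluster 6 (287 and 1124 CPM). Snx29 stood at 48.7 and 356 CPM. In thinned cells a UMI of Snx29 was found in 2.66% and 12% of these cells and in 5.56% and 12.7% of B cells. The Snx29 level was highest in cluster 6 in both libraries, at 184 and 1208 CPM, against 39.2 and 134 CPM in cluster 1 and 10.5 and 99.4 CPM in cluster 3, and 43 of its 59 UMIs labelled WT came from the 24 cells of cluster 6. In B cells Snx29 stood at 80.4 and 220.4 CPM, and the part of free RNA in the difference was not tested. Stk25 stood at 55.2 and 18.1 CPM from 51 and 3 UMIs (1.61, -0.02 to 3.93), an interval that includes 0. Of 11 genes of Stk25 and its STRIPAK partners, Strn (31.4 and 72.4 CPM) and Strn3 (47.6 and 109 CPM), 2 scaffold subunits, were lower.

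Markers of other cells were present in the neutrophil-like clusters at low levels. The summed level of 9 monocyte markers was 1539 CPM labelled STK25 wKO and 796 CPM labelled WT, where F13a1, Chil3 and Ms4a4c were at 0 UMIs. B cells had 1796 and 634 CPM, and whether they express some of these genes themselves was not tested. The 8 epithelial markers summed to 3427 and 2534 CPM, close to the 3234 CPM of B cells labelled STK25 wKO and above their 1584 CPM labelled WT. The 11 macrophage markers summed to 845 and 519 CPM, and T or NK markers to 35.7 and 157 CPM. Their part in the differences between the libraries was not tested.

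Over all S100-low cells, 698 of 10827 genes were higher in the library labelled STK25 wKO (6.45%) and 899 lower (8.30%), with a median log2 ratio of -0.12. Scaling by the median of ratios gave 869 higher and 655 lower. Several of the genes farthest apart lay mostly in the other 6 clusters. Chil3 encodes a chitinase-like protein and stands in both the granule gene list and the monocyte marker list. It had 739 UMIs labelled STK25 wKO (246 CPM) and 1 UMI labelled WT, and 98.1% of the UMIs labelled STK25 wKO lay outside the neutrophil-like clusters. Saa3 stood at 275 and 4.55 CPM with 95% of its UMIs labelled STK25 wKO outside, and Ccl2, a monocyte-attracting chemokine, at 274 and 10.6 CPM with 98.8% outside. By comparison 27.6% of Csf3r UMIs and 24.9% of Retnlg UMIs lay outside.

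Within those clusters some of these genes differed too. In cluster 4 Chil3 stood at 795 CPM labelled STK25 wKO and 8.33 CPM labelled WT, Nos2, the inducible nitric oxide synthase, at 394 and 33.3 CPM, and Il12b, a subunit of interleukin-12 and interleukin-23, at 43.8 and 675 CPM. In cluster 8, with 45 and 5 cells, Ccl2 stood at 2589 CPM and 0 UMIs and Csf3, the gene of G-CSF, at 1114 CPM and 0 UMIs, where an exact interval allows up to 175 CPM. In cluster 5 Il17a stood at 1057 and 944 CPM. The monocyte markers summed to 3707 CPM labelled STK25 wKO and 1214 CPM labelled WT over all S100-low cells, and 5 of 9 were higher. Of 11 T or NK markers 5 were lower, with summed levels of 274 and 728 CPM, and cluster 5 held 7.12% and 16.7% of the S100-low cells of the 2 libraries.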

How the data were processed

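Each library was made with droplet-based 10x Genomics 3' chemistry from pooled tumour cells. As deposited, the values are unnormalised UMI counts of each gene in each barcode, and the submitters' processing notes name Cell Ranger 7.1.0 and mm10. Barcodes entered if 200 or more genes were found and mitochondrial UMIs did not exceed 25%, and members were found by the rule in the report. The members and gene lists were chosen with earlier results of these data known. Counts were summed per library and class and given as CPM with exact Poisson intervals, and shares with exact Clopper-Pearson intervals (95%, counting error only). Log2 ratios printed with an interval were taken from CPM without adding 1 and have exact conditional binomial intervals of the same kind. Calls, centred log2 ratios and list medians used CPM + 1. Genes needed 20 UMIs over the 2 groups compared. With 1 library per group no test was run. Named genes were the 10 farthest apart in each direction with at least 50 UMIs and 50 CPM, the members of fixed lists, and others chosen after their values were seen. Members were clustered with scanpy 1.11.5 (2000 variable genes, 20 components, 15 neighbours) and leidenalg 0.10.2 at resolution 0.5. The neutrophil-like clusters were defined after seeing the clusters. Leading genes were ranked by fold among genes found in at least 10% of a cluster's cells. Shares of cells with a UMI were compared after thinning to 500 UMIs. B cells had at least 3 UMIs of B-cell markers. Promoter stretches were read from RefSeq (GRCm38.p6). Aldoa, BC100530 and Clec7a were not analysed here. Some listed genes are not reported here. The scripts, in Python 3.11.15 with numpy 2.4.6, scipy 1.17.1 and pandas 2.3.3, were tested on simulated data. The chemistry version and sequencer were not settled by the sources used here.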

Additional observations from a re-analysis of the deposited data

Results flagged for a closer look

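Cxcl5, a neutrophil-attracting chemokine, differed in direction between the libraries in the comparison of neutrophil-like S100-low with S100-high cells. Its log2 ratio was 1.08 in the library labelled STK25 wKO (29.2 CPM in S100-low and 13.3 CPM in S100-high cells) and -6.92 in the library labelled WT (24.1 and 3041 CPM). All 87 Cxcl5 UMIs of the S100-high cells labelled WT lay in the 1 cell with 9063 UMIs, which also held all 42 Arg1 UMIs of that group. The difference between the libraries was not tested.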

How the results depend on the processing

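Single genes were recomputed only for a chosen set in the neutrophil-like clusters, under other ways of counting and with S100 under 50. They were not recomputed with doublets removed, without cells holding UMIs of other classes or under the other cell filters. Of the results recomputed, no share and no gene apart by a log2 ratio of 1 or more changed sign under the alternatives run for it. Values nearer 0 did, such as Il1b between libraries in the neutrophil-like clusters (0.12, and -0.05 with S100 under 50) and the cell cycle median between libraries over all members (-0.55, and 0.13 after thinning or 0.27 as a mean over cells). The balance of genes higher and lower between the libraries over all members turned with the scaling and with the choice of cells. The ratio of S100-low shares (4.09) was 3.31 with at least 2 UMIs of Csf3r, Cxcr2 or Il1r2 and 3.09 with an epithelial sum under 4. The share of neutrophil-rule cells that were S100-low, labelled STK25 wKO minus labelled WT (-28.3 percentage points), was -32.7 with S100 under 50, -22.1 under 200, -34.2 with the receptor minimum, -36.6 without cells holding UMIs of other classes, -41.2 in the neutrophil-like clusters and -35.3 with cluster 2 added. Genes higher (698) and lower (899) in the library labelled STK25 wKO over all members were 379 and 530 at 50 or more UMIs, 1684 and 2376 at 1 or more, and 396 and 567 with a pseudocount of 5. Higher genes outnumbered lower ones, against the main order, under the median of ratios (869 and 655), the mean over cells (966 and 838), after thinning (527 and 420), without cells holding UMIs of other classes (768 and 666), in the neutrophil-like clusters (692 and 324) and with cluster 2 added (676 and 586). Genes higher (1381) and lower (76) than in S100-high cells in both libraries were 690 and 49 without cells holding UMIs of other classes, 281 and 32 after thinning, 368 and 227 under the median of ratios, 690 and 42 at 50 UMIs, 3959 and 131 at 1 UMI, 252 and 29 in the neutrophil-like clusters, 462 and 49 with cluster 2, and 1460 and 85 without the deepest S100-high cell labelled WT, an alternative added after seeing the data. Between libraries in the neutrophil-like clusters, 692 and 324 were 366 and 192 after thinning, 215 and 107 at 50 UMIs, and 5478 and 2154 at 1 UMI. The causes were not tested. List medians stayed close in 376 of 388 settings and the recomputed genes in 212 of 238. No paired analysis was possible because each genotype has 1 library.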
